A study of Mus musculus with 8 samples.

Results

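Genes of glycolysis and of the response to low oxygen were followed in the posterior part of Cdx2 null mutant and wild type mouse embryos. The list held 35 genes of the 28307 gene names on the array: 2 glucose transporters, 18 glycolytic enzymes, 2 pyruvate dehydrogenase kinases, 12 targets of the hypoxia response and the hypoxia factor Hif1a. Members were taken by gene name among non-control probes, which gave 62 of 41174 probes and 89 spots on each array. A probe was kept if 3 or more of a stage's 4 arrays marked it well above background for the same genotype. By that limit 51 of the 62 probes and 34 of the 35 genes were kept. Eno2, the enolase of neurons, was the gene left out: of its 2 probes, 1 was well above background on 1 of 8 arrays in the null channel and on none in the wild type channel, and the other on no array.

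All embryos were of strain C57Bl6J/CBA and were collected at 4 to 5 somites (written 4/5) or at 7 to 8 somites (written 7/8). At each stage RNA came from 20 Cdx2 null mutant and 20 wild type embryos, read from the labels as 1 pool per genotype and stage, 4 pools in all. Cdx2 is a homeobox transcription factor of the posterior embryo and of the trophoblast, which needs it for implantation. The sources used here do not give the allele or how null embryos of these stages were obtained. The tissue, cut at matching axial levels behind the somites, was compared on 2-colour Agilent arrays that cover the mouse genome. Each stage had 4 arrays, a dye swap pair (arrays 1 and 2) and a technical repeat of that pair (arrays 3 and 4). The null pool carried Cy3 on arrays 1 and 3 and Cy5 on arrays 2 and 4.

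Every ratio below is log2 of null over wild type, and each SD over the 4 arrays of a stage was taken as technical, on the reading that those arrays carried the same pools. The sources used here do not say whether the technical repeat used the same labelled RNA. A channel had 46.5% to 58.9% of its probes well above background. Arrays of 1 stage and dye order correlated at 0.87 to 0.92 across genes, and those of 1 stage with swapped dyes at 0.49 to 0.57; genes are not independent replicates. Cdx2 itself was at -1.23 ± 0.12 at 4/5 and -1.55 ± 0.05 at 7/8 somites and lower in null on all 8 arrays; the sources used here do not give whether its probe lies in the deleted part. Of the markers of posterior mesoderm and tail bud, 8 of 8 were above the background limit. Of 5 anterior neural markers, which lie outside the dissected tissue, none was.

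Glycolysis splits glucose into pyruvate and yields ATP without oxygen, and lactate dehydrogenase then turns pyruvate into lactate. When oxygen is low, prolyl hydroxylases no longer mark the alpha subunit of hypoxia-inducible factor for degradation, and the factor binds a short core motif near its target genes, many of them transporters and enzymes of glycolysis. In the mouse embryo the presomitic mesoderm of the tail bud is known for high glycolytic activity, which falls off as cells mature.

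The stretches of 250 bases before the RefSeq start site (build GRCm38.p6) of 5 members are printed below. These members changed with genotype and differ in whether they hold ACGTG, a form of the core motif of hypoxia-inducible factor. Only ACGTG was searched, on either strand (it reads CACGT on the opposite strand), and every match is in capitals. The form of the core that starts with G, GCGTG, was not searched and stays in lower case where it occurs. Slc2a1, at chr4:119108495-119108744 on the plus strand, held 1 match, and Ddit4, at chr10:59951771-59952020 on the minus strand, held 1. Bnip3, at chr7:138909507-138909756 on the minus strand, held 1 match on each strand that together form the palindrome CACGTG. Pgk1, at chrX:106186850-106187099 on the plus strand, held 2, and Tpi1, at chr6:124814159-124814408 on the minus strand, held none.
Slc2a1: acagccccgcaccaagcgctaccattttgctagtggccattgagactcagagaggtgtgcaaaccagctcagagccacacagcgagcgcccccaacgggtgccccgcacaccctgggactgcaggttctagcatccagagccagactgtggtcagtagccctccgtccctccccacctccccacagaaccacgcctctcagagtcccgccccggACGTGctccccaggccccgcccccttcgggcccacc
Ddit4: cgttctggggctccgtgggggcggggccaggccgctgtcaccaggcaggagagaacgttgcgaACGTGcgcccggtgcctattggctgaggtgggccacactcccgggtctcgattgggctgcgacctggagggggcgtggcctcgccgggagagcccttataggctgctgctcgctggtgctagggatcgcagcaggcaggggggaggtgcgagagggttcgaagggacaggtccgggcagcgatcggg
Bnip3: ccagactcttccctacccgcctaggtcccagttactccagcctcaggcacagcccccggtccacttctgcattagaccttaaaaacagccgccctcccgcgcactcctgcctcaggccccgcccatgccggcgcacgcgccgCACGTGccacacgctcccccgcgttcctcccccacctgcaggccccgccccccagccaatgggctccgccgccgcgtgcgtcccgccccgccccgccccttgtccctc
Pgk1: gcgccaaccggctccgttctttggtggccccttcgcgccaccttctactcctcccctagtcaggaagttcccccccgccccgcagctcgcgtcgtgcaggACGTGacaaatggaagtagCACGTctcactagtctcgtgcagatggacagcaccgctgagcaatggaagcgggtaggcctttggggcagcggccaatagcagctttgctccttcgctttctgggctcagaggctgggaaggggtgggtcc
Tpi1: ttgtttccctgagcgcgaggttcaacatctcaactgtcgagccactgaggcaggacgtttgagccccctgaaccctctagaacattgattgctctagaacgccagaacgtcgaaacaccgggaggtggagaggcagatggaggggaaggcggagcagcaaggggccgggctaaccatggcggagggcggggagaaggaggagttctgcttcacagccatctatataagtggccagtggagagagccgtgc

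Over both stages, 12 of the 34 members tested passed the genotype test, 4 of them higher in null and 8 lower. The glucose transporter Slc2a1 rose by 0.78 on the log2 scale, and the lactate dehydrogenase Ldhb, the peptide hormone Adm and the stress gene Ndrg1 rose by less. The stress genes Ddit4 and Bnip3 and the enzymes Pfkl, Eno1, Pgk1, Tpi1 and Gapdh fell, as did the prolyl hydroxylase Egln3. Among all 15490 genes tested the same call was made for 10.9% (6.49% higher and 4.37% lower). The median ratio of the 34 members was -0.12, against -0.01 for all genes. A ratio below 0 was found for 27 of the 34, against 8079 of 15490 genes. The ratio had the same sign on all 8 arrays for 15 members (44.1%), against 19.5% of all genes. Calls were made with limma, two-sided, on 1 mean ratio per stage, at a threshold of 0.05 after Benjamini-Hochberg adjustment, so the 2 stages stood as the replicates. With 1 residual degree of freedom, the test leaned mostly on the spread that limma pools over genes. In pooled tissue, fewer cells of a type and less RNA per cell cannot be told apart.

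**Figure D1:**
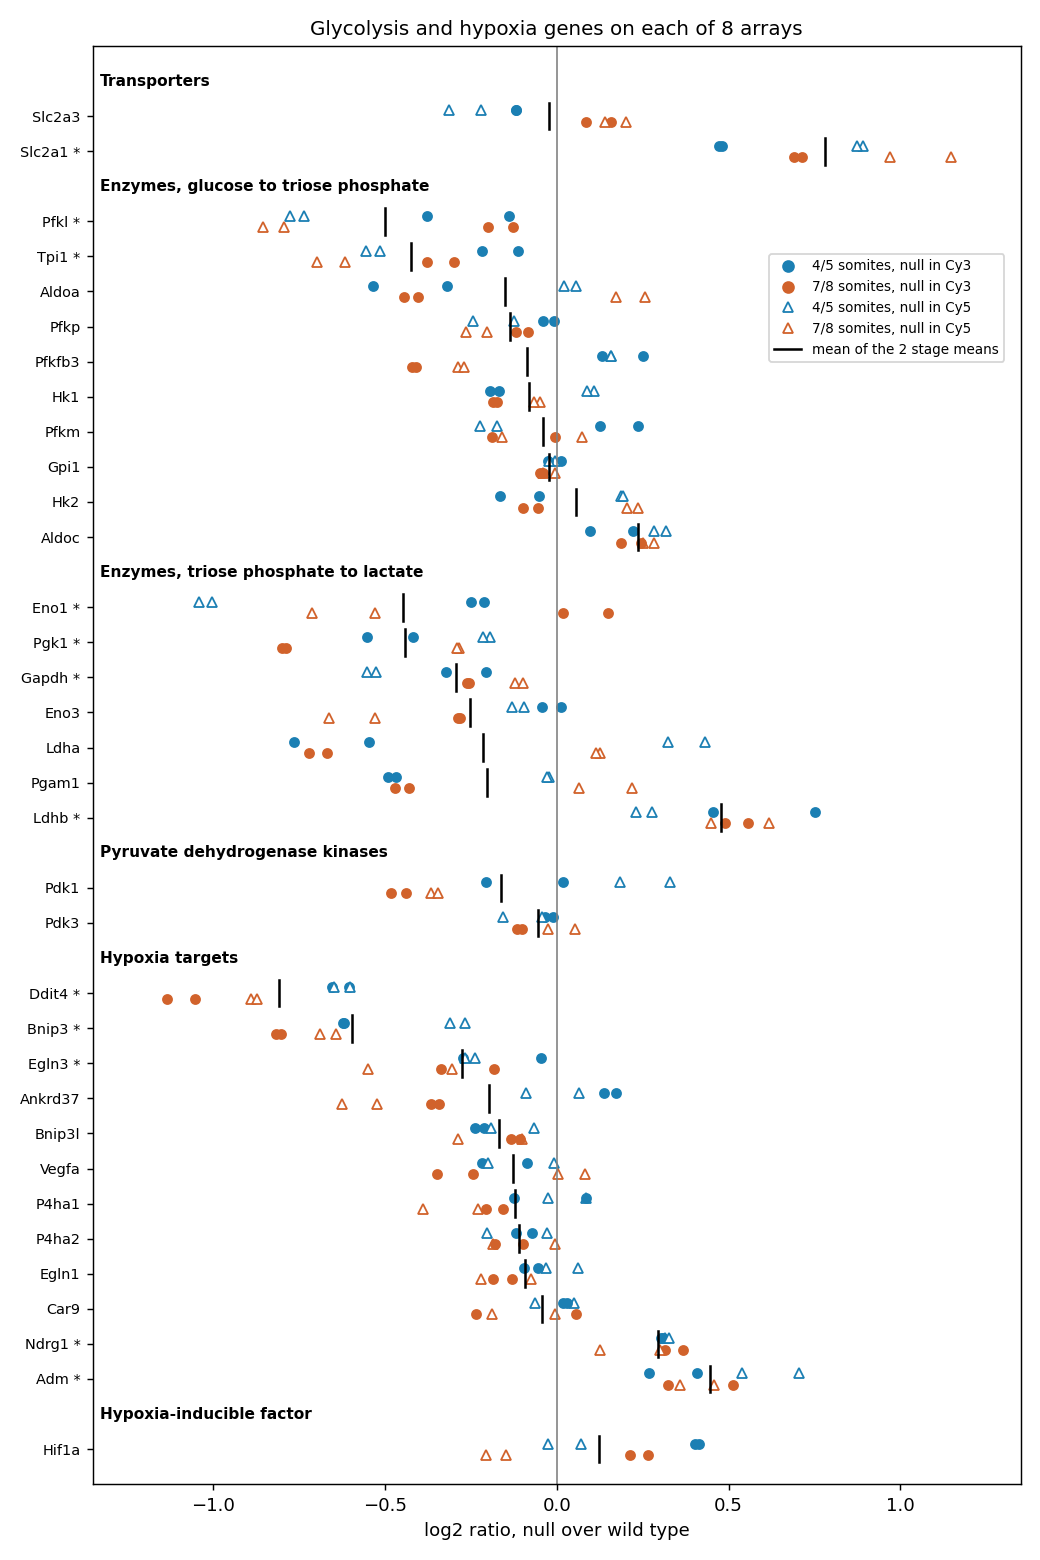
Log2 ratio of null over wild type (x axis) of 34 genes in groups by role (y axis), with 1 point per array (filled circles, null pool in Cy3; open triangles, null pool in Cy5; blue, 4/5 somites; orange, 7/8 somites), a black bar at the mean of the 2 stage means, and an asterisk at the 12 genes that passed the genotype test. Slc2a1 lies above 0 on all 8 arrays and Ddit4 below 0 on all 8, whereas the points of Ldha fall on either side of 0 by dye order.

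Slc2a1, the basal glucose transporter of many cell types, read 0.47, 0.89, 0.48 and 0.87 on arrays 1 to 4 at 4/5 somites. At 7/8 somites it read 0.72, 1.15, 0.69 and 0.97. All 8 values were above 0, and the arrays with the null pool in Cy5 gave the higher ones at both stages. The stage means were 0.68 ± 0.24 and 0.88 ± 0.22 (technical SD, n = 4 arrays), which is 1.60-fold and 1.84-fold higher in null. The rise over both stages was 0.78 (SE 0.09, limma adjusted p = 2.19e-06). In channel levels, Slc2a1 stood at 14.65 ± 0.19 and 14.66 ± 0.17 in wild type at the 2 stages and at 15.33 ± 0.06 and 15.54 ± 0.12 in null, with no overlap of the 4 channels of the genotypes at either stage.

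Slc2a3, a transporter with a high affinity for glucose, did not pass the genotype test (-0.02, SE 0.09, limma adjusted p = 0.940). Its 4 arrays at 4/5 somites read -0.12, -0.31, -0.12 and -0.22, and those at 7/8 somites 0.16, 0.14, 0.09 and 0.20. The sign therefore differed between the stages on every array.

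Of the 10 enzymes that carry glucose to triose phosphate, 2 fell and none rose (all genes: 4.37% fell and 6.49% rose). The other 8 had ratios between -0.15 and 0.24. Pfkl, the liver-type phosphofructokinase that catalyses the committed step, read -0.38, -0.74, -0.14 and -0.78 at 4/5 somites and -0.20, -0.79, -0.13 and -0.85 at 7/8 somites. Every array was below 0, but the arrays with null in Cy3 lay nearer to 0 than those with null in Cy5. Its fall over both stages was by 0.50 (SE 0.08, limma adjusted p = 0.000298). On the 4 arrays with null in Cy3 alone the value was -0.21 and the call was lost (limma adjusted p = 0.229).

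Tpi1, which interconverts the pair of triose phosphates, read -0.22, -0.56, -0.11 and -0.52 at 4/5 somites. At 7/8 somites the values were -0.38, -0.70, -0.30 and -0.62. All 8 arrays were below 0, again nearer to 0 with null in Cy3. Over both stages Tpi1 was at -0.42 (SE 0.09, limma adjusted p = 0.00186), and with null in Cy3 alone at -0.25 without passing (limma adjusted p = 0.161).

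The other hexose steps stayed closer to 0. Hk2, the inducible hexokinase that traps glucose in the cell, read -0.05, 0.19, -0.17 and 0.19 at 4/5 somites and -0.05, 0.20, -0.10 and 0.24 at 7/8 somites. Its sign followed the dye order at both stages, and it did not pass the test (0.06, SE 0.08, limma adjusted p = 0.80). Hk1, the widely expressed hexokinase, read -0.17, 0.11, -0.20 and 0.09 at 4/5 and -0.19, -0.05, -0.17 and -0.07 at 7/8 somites (-0.08, SE 0.08, limma adjusted p = 0.682). Aldoc, an aldolase, had the highest ratio among the enzymes up to triose phosphate, 0.24 (SE 0.08, 8 of 8 arrays above 0), and did not pass after adjustment (limma adjusted p = 0.0831). Gpi1, the isomerase of the second step, was measured by a probe with 10 spots per array, and its 8 array values lay between -0.05 and 0.01.

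Among the 7 enzymes tested between triose phosphate and lactate, 3 fell, 1 rose and 3 did not pass (all genes: 4.37% fell and 6.49% rose). The median ratio of these 7 was -0.25, against -0.08 for the 10 enzymes before them; no test was run on that difference. Eno1, the widely expressed enolase, read -0.21, -1.04, -0.25 and -1.0 at 4/5 somites and 0.15, -0.71, 0.02 and -0.53 at 7/8 somites. The dye orders differed by more than the size of the mean ratio, and 2 of 8 arrays were above 0. Eno1 fell by 0.45 over both stages (SE 0.09, limma adjusted p = 0.00237). With null in Cy3 alone it was at -0.07 (limma adjusted p = 0.753). Without array 2 or array 4 of 7/8 somites it did not pass (-0.37 and -0.40, limma adjusted p = 0.144 and 0.0711). Nor did it with no background correction, median centring or no filter on dim probes (limma adjusted p = 0.0852, 0.106 and 0.0919). The call held in 15 of 21 alternative settings.

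Pgk1, the phosphoglycerate kinase of chromosome X, makes ATP directly from its substrate. It read -0.55, -0.20, -0.42 and -0.22 at 4/5 somites and -0.79, -0.29, -0.80 and -0.29 at 7/8 somites, below 0 on all 8 arrays and lower with null in Cy3. Its fall over both stages was by 0.44 (SE 0.09, limma adjusted p = 0.00144), and its other probe gave -0.47 (limma adjusted p = 0.00163 over all probes). With null in Cy5 alone Pgk1 was at -0.25 and did not pass (limma adjusted p = 0.0987).

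Gapdh, the dehydrogenase often used as a reference gene, read -0.32, -0.55, -0.21 and -0.53 at 4/5 somites. At 7/8 somites the values were -0.25, -0.12, -0.26 and -0.10. The 8 arrays were all below 0, but the size was small: -0.29 over both stages (SE 0.09, limma adjusted p = 0.0340). The call was lost without any 1 of 7 arrays (all but array 1 of 4/5 somites), with limma adjusted p between 0.0564 and 0.118, and held in 4 of 22 alternative settings. In the fit over all probes the same probe did not pass (limma adjusted p = 0.0501), nor did the second Gapdh probe, at -0.20 (SE 0.09, limma adjusted p = 0.180).

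The lactate dehydrogenase subunits had mean ratios of opposite sign. Ldhb, the heart-type subunit, read 0.75, 0.28, 0.46 and 0.23 at 4/5 somites and 0.49, 0.62, 0.56 and 0.45 at 7/8 somites. It was above 0 on all 8 arrays and rose by 0.48 (SE 0.09, limma adjusted p = 0.000528). Ldha, the muscle-type subunit and a classical target of hypoxia-inducible factor, read -0.77, 0.43, -0.55 and 0.32 at 4/5 somites and -0.72, 0.13, -0.67 and 0.11 at 7/8 somites. Each array with null in Cy3 was below 0 and each with null in Cy5 above it, so the mean of -0.21 (SE 0.09, limma adjusted p = 0.129) averaged values of opposite sign.

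A second Ldha probe, which lies over an exon junction, gave -0.44 (SE 0.08) and passed in the fit over all probes (limma adjusted p = 0.00263). Genes of this group, Gapdh above all, have many processed pseudogenes of near-identical sequence, so their signal may include related transcripts. The probes of Gapdh, Eno1 and Ldha that lie in coding sequence are printed below, since their readings differ by dye or by probe and the letters show which stretch was measured. On build mm9 the Gapdh probe used maps to chr6:125112515-125112573 and the second Gapdh probe to chr6:125112105-125112274, both on the minus strand. The Eno1 probe maps to chr4:149618134-149618359 and the junction probe of Ldha to chr7:54109426-54110355, both on the plus strand. The spans of the second Gapdh probe, the Eno1 probe and the Ldha probe are longer than the 60 bases of a probe.
Gapdh probe used: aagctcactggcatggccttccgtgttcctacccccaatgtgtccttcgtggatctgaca
second Gapdh probe: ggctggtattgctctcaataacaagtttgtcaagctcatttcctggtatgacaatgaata
Eno1 probe: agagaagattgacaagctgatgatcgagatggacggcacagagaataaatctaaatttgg
Ldha junction probe: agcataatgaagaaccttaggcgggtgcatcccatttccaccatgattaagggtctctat

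The pyruvate dehydrogenase kinases hold pyruvate out of the citrate cycle. Neither passed the genotype test: Pdk1 was at -0.16 (SE 0.10, limma adjusted p = 0.376) and Pdk3 at -0.05 (SE 0.08, limma adjusted p = 0.807). The second probe of Pdk1 gave -0.33 and passed in the fit over all probes (limma adjusted p = 0.0263). Hif1a, the alpha subunit that oxygen controls mainly through protein stability, read 0.40, -0.03, 0.41 and 0.07 at 4/5 somites and 0.21, -0.20, 0.27 and -0.15 at 7/8 somites. The arrays with null in Cy3 were the higher ones at both stages, and Hif1a did not pass (0.12, SE 0.09, limma adjusted p = 0.463).

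Of the 12 hypoxia targets, 3 fell, 2 rose and 7 did not pass (all genes: 4.37% fell and 6.49% rose). Ddit4, an inhibitor of mTOR signalling induced by stress and low oxygen, read -0.61, -0.60, -0.65 and -0.65 at 4/5 somites. At 7/8 somites it read -1.05, -0.89, -1.13 and -0.87. Its 4 values at 4/5 somites had a technical SD of 0.03, and the values of the stages did not overlap. Ddit4 was 1.54-fold lower in null at 4/5 and 1.98-fold lower at 7/8 somites, and its fall over both was by 0.81 (SE 0.09, limma adjusted p = 3.41e-06), the lowest ratio among the 34 members.

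Bnip3, a mitochondrial protein that promotes the removal of mitochondria, read -0.62, -0.27, -0.62 and -0.31 at 4/5 somites and -0.82, -0.64, -0.80 and -0.69 at 7/8 somites. It was below 0 on all 8 arrays, and every array at 7/8 somites lay below every array at 4/5 somites. Over both stages Bnip3 fell by 0.60 (SE 0.09, limma adjusted p = 8.74e-05). Its relative Bnip3l, also a mitophagy receptor, was at -0.17 and did not pass (SE 0.08, limma adjusted p = 0.256, 8 of 8 arrays below 0). A second kept probe of Bnip3l gave -0.04 in the fit over all probes (limma adjusted p = 0.870). That probe had means of 0.11 at 4/5 and -0.20 at 7/8 somites.

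Egln3, a prolyl hydroxylase that is itself induced by hypoxia-inducible factor, read -0.27, -0.24, -0.05 and -0.27 at 4/5 and -0.34, -0.30, -0.18 and -0.55 at 7/8 somites. All 8 arrays were below 0 and the value over both stages was -0.27 (SE 0.09, limma adjusted p = 0.0426). This call did not pass without any 1 of 7 arrays (all but array 3 of 7/8 somites; limma adjusted p between 0.0547 and 0.149) and held in 4 of 21 alternative settings. Egln1, the main hydroxylase of oxygen sensing, was at -0.09 (SE 0.09, limma adjusted p = 0.622).

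Adm, the vasodilator peptide adrenomedullin, read 0.27, 0.71, 0.41 and 0.54 at 4/5 somites and 0.32, 0.36, 0.51 and 0.46 at 7/8 somites. It was above 0 on every array and rose by 0.45 (SE 0.08, limma adjusted p = 0.0010), passing in 20 of 21 alternative settings. Its size depended on the background step: with no background correction the value was 0.34 (limma adjusted p = 0.0524), and with the scanner's processed signals it was 0.79 (limma adjusted p = 3.71e-05). Ndrg1, a stress-response gene of differentiating cells, read 0.30, 0.31, 0.31 and 0.33 at 4/5 and 0.31, 0.12, 0.37 and 0.30 at 7/8 somites. Its value of 0.29 over both stages (SE 0.08, limma adjusted p = 0.0262) was above 0 on all 8 arrays. The call was lost without array 2, 3 or 4 of 4/5 or array 2 or 4 of 7/8 somites (limma adjusted p between 0.0509 and 0.0799). It was also lost with no background correction and with the scanner's processed signals, and held in 8 of 21 alternative settings.

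Vegfa, the growth factor of blood vessels and a classical target of hypoxia-inducible factor, read -0.22, -0.01, -0.09 and -0.20 at 4/5 somites and -0.35, 0.08, -0.24 and 0.00 at 7/8 somites. It did not pass on the probe used (-0.13, SE 0.08, limma adjusted p = 0.425). Of its 3 kept probes all gave a ratio below 0, and the dimmest of the 3 passed in the fit over all probes (-0.35, SE 0.09, limma adjusted p = 0.0162). The collagen prolyl hydroxylases P4ha1 and P4ha2 were at -0.12 and -0.11, and the carbonic anhydrase Car9, a membrane enzyme of pH control, was at -0.04; none of the 3 passed.

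**Figure D2:**
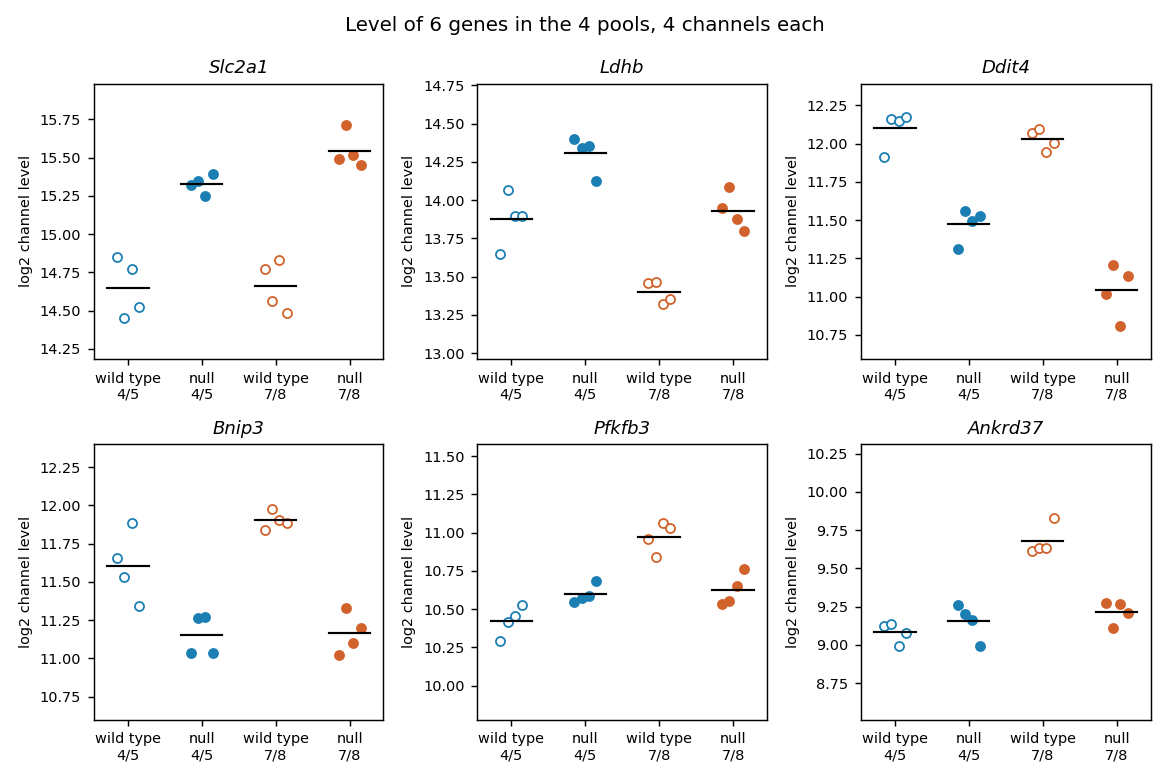
Log2 channel level (y axis, Aquantile-normalized; every panel spans the same number of log2 units) of 6 genes in the 4 pools (x axis; open, wild type; filled, null; blue, 4/5 somites; orange, 7/8 somites), with 1 point per array and a bar at the pool mean. The null channels of Slc2a1 lie above and those of Ddit4 below all wild type channels of the same stage, and the wild type channels of Ankrd37 and Pfkfb3 are higher at 7/8 than at 4/5 somites.

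Enzymes and hypoxia targets were set against each other by their counts and medians. Among all genes tested, 6.49% rose and 4.37% fell, with a median of -0.01. Of 17 enzymes tested, 1 rose and 5 fell, with a median ratio of -0.15. Of 12 hypoxia targets, 2 rose and 3 fell, with a median of -0.12, which became -0.040 with median centring in place of loess. That setting moved the median of all genes to 0.045. Both medians were lower at 7/8 somites: the enzymes went from -0.10 to -0.17 and the targets from -0.07 to -0.16. On single arrays the median of the enzymes lay between -0.20 and -0.02 and that of the targets between -0.25 and -0.02, each below the median of all genes on the same array. The enzyme median minus the target median ranged from -0.09 (array 3 of 4/5 somites) to 0.19 (array 4 of 7/8 somites) and was above 0 on 4 of 8 arrays, so neither group was the lower one throughout.

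**Figure D3:**
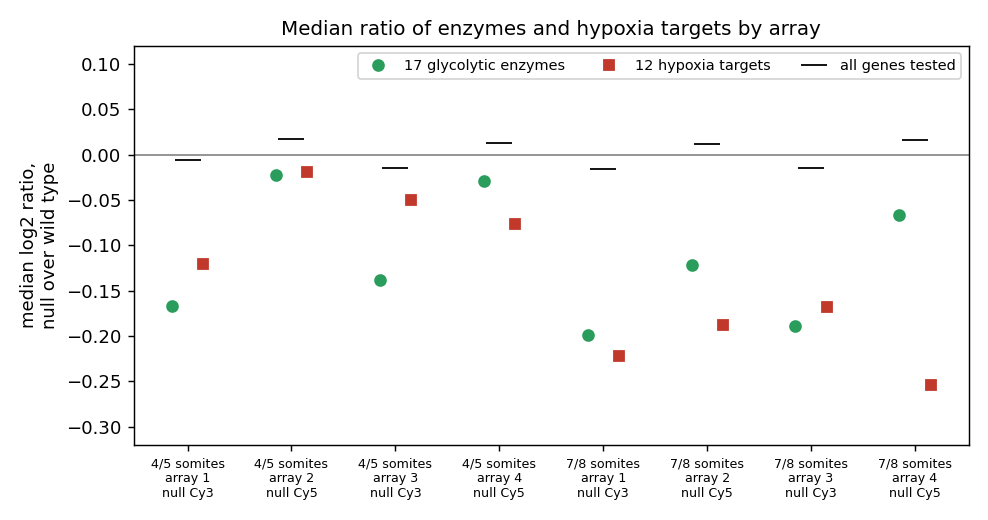
Median log2 ratio of null over wild type (y axis) on each of the 8 arrays (x axis) for 17 glycolytic enzymes (green circles), 12 hypoxia targets (red squares) and all genes tested (black bars). Both groups lie below the median of all genes on every array, the enzymes between -0.20 and -0.02 and the targets between -0.25 and -0.02.

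Within a stage there was 1 pool per genotype and hence no test. A member was counted there when its mean ratio was at least 0.5 in size with the same sign on all 4 arrays. At 4/5 somites 4 members met this rule, Slc2a1 above 0 and Ddit4, Eno1 and Pfkl below, against 3.49% of all genes (1.98% above 0 and 1.52% below). At 7/8 somites 5 members met it, Slc2a1 and Ldhb above 0 and Bnip3, Ddit4 and Pgk1 below, against 3.76% of all genes (2.18% above 0 and 1.58% below). Slc2a1 and Ddit4 were thus the members that met the rule at both stages. Pfkl and Tpi1 fell short of it at 7/8 somites by a small margin, at -0.49 ± 0.38 and -0.50 ± 0.19.

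Pfkfb3 and Ankrd37 were the members whose ratio differed between the stages by at least 0.5 with no overlap of arrays, a rule that 1.79% of all genes met (0.749% with the lower ratio at 7/8 somites, as in both of these). Pfkfb3, which makes the main activator of phosphofructokinase, read 0.25, 0.16, 0.13 and 0.16 at 4/5 somites and -0.42, -0.29, -0.41 and -0.27 at 7/8 somites. Every array was above 0 at the earlier stage and below 0 at the later one. Its wild type level went from 10.42 ± 0.10 to 10.97 ± 0.10, whereas the null level was 10.60 ± 0.06 and 10.63 ± 0.10.

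Ankrd37, an ankyrin repeat protein induced by hypoxia-inducible factor, read 0.14, 0.06, 0.17 and -0.09 at 4/5 somites and -0.34, -0.52, -0.37 and -0.62 at 7/8 somites. Its wild type level went from 9.08 ± 0.07 to 9.68 ± 0.10, and the null level was 9.15 ± 0.12 and 9.21 ± 0.07. Pdk1 was close to the rule, where the probe used gave 0.08 ± 0.23 at 4/5 and -0.41 ± 0.06 at 7/8 somites as ratios. Its second kept probe read -0.22 and -0.44, below 0 at both stages and with a smaller difference between them. On the probe used the wild type level of Pdk1 went from 9.47 ± 0.20 to 10.02 ± 0.09, and its null level was 9.55 ± 0.08 and 9.61 ± 0.05. On these probes the 3 genes shared a wild type level that was higher at the later stage and null levels that were less than 0.1 apart between the stages.

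Across the list, 21 of 34 members and 10 of 12 hypoxia targets had a lower ratio at 7/8 than at 4/5 somites, against 8070 of 15490 genes. The genotypes were pooled once per stage, so none of these stage differences was tested. Without array 1 of 7/8 somites 1 member met the rule, without array 3 of 4/5 or array 2 of 7/8 somites 3 did, and with median centring in place of loess none did.

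**Figure D4:**
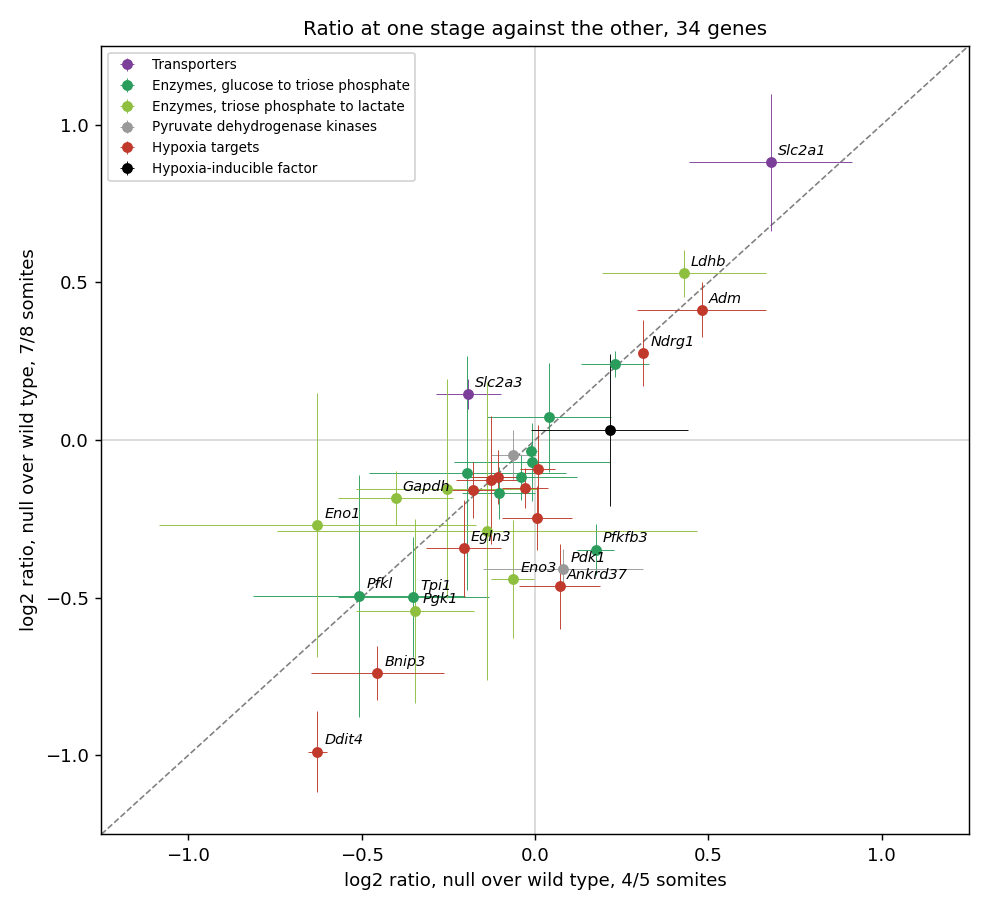
Mean log2 ratio of null over wild type at 7/8 somites (y axis) against 4/5 somites (x axis) for 34 genes coloured by role, with lines of 1 technical SD over 4 arrays in each direction and a dashed line at equal ratios. Pfkfb3, Ankrd37 and Pdk1 (the probe used) lie below the dashed line with ratios above 0 at 4/5 and below 0 at 7/8 somites.

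The stages themselves were compared on channel levels, with genotype as a term and the genotypes as replicates. Of 34 members, 4 were higher and 1 lower at 7/8 than at 4/5 somites, against 11% of all genes called (6.13% higher and 4.89% lower). Hk1 rose by 0.54 (SE 0.08, limma adjusted p = 0.000161), from 8.99 ± 0.15 to 9.57 ± 0.10 in wild type and from 8.95 ± 0.09 to 9.45 ± 0.10 in null. Its 4 channels at 7/8 somites lay above all 4 at 4/5 somites in each genotype. With the mean over its 3 kept probes the rise was 0.31 (limma adjusted p = 0.0255). Ldhb fell by 0.43 (SE 0.09, limma adjusted p = 0.00197), from 13.88 ± 0.17 to 13.40 ± 0.07 in wild type and from 14.30 ± 0.12 to 13.93 ± 0.12 in null.

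Pfkl rose by 0.32 with stage (SE 0.08, limma adjusted p = 0.0154) and Ankrd37 by 0.33 (SE 0.10, limma adjusted p = 0.0434). Eno3, the muscle enolase, rose by 0.29 (SE 0.09, limma adjusted p = 0.0483). Between the stages Ankrd37 differed by 0.60 in wild type and by 0.06 in null. Eno3 went from 11.48 ± 0.16 to 11.96 ± 0.20 in wild type and from 11.41 ± 0.19 to 11.52 ± 0.04 in null. Eno3 read 0.01, -0.13, -0.04 and -0.10 as a genotype ratio at 4/5 and -0.29, -0.66, -0.28 and -0.53 at 7/8 somites, with all 4 later arrays below all 4 earlier ones. The stage value of Eno3 was 0.07 on the arrays with null in Cy3 (limma adjusted p = 0.722) and 0.52 on those with null in Cy5 (limma adjusted p = 0.00987), and that of Pfkl was 0.21 on slide 1 alone (limma adjusted p = 0.167). The stage calls of Hk1 and Ldhb held in all 17 alternative settings, that of Pfkl in 10, of Eno3 in 6 and of Ankrd37 in 3. The stage call of Pfkl was lost without array 2 or 3 of 4/5 or array 4 of 7/8 somites (limma adjusted p between 0.0540 and 0.0888). Ankrd37 passed without array 1 of 4/5 somites and with no other array left out (limma adjusted p between 0.0730 and 0.177), and Eno3 was lost without array 2 or 4 of 4/5 or array 1, 2 or 4 of 7/8 somites (limma adjusted p between 0.0601 and 0.189).

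In wild type alone, 4 members differed between the stages by at least 0.5 with no overlap of channels (Hk1, Ankrd37, Pfkfb3 and Pdk1, each higher at 7/8 somites), against 2.46% of all genes (1.27% higher). In null alone Hk1 did, against 2.81% of all genes (1.41% higher). A member past the rule in 1 genotype and not in the other is not shown to differ between them by this count.

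Dye order moved with several of these results. With the null pool in Cy3 and in Cy5, 8 of 34 members had mean ratios of opposite sign, against 6330 of 15490 genes. The widest gap was that of Ldha, at -0.68 with null in Cy3 and 0.25 with null in Cy5, followed by Eno1 (-0.07 and -0.82) and Pfkl (-0.21 and -0.79). The median size of the gap was 0.167 for the members and 0.132 for all genes. Of the 9 members with a mean log2 intensity of at least 14, 4 had opposite signs, against 300 of the 539 genes of that brightness, and the median gap was 0.381 against 0.208. The dye orders are balanced within each stage, so a dye effect that is the same on every array cancels in a stage mean. Ddit4 (-0.86 and -0.75) and Adm (0.38 and 0.52) kept their sign in both dye orders, and their gaps were smaller.

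**Figure D5:**
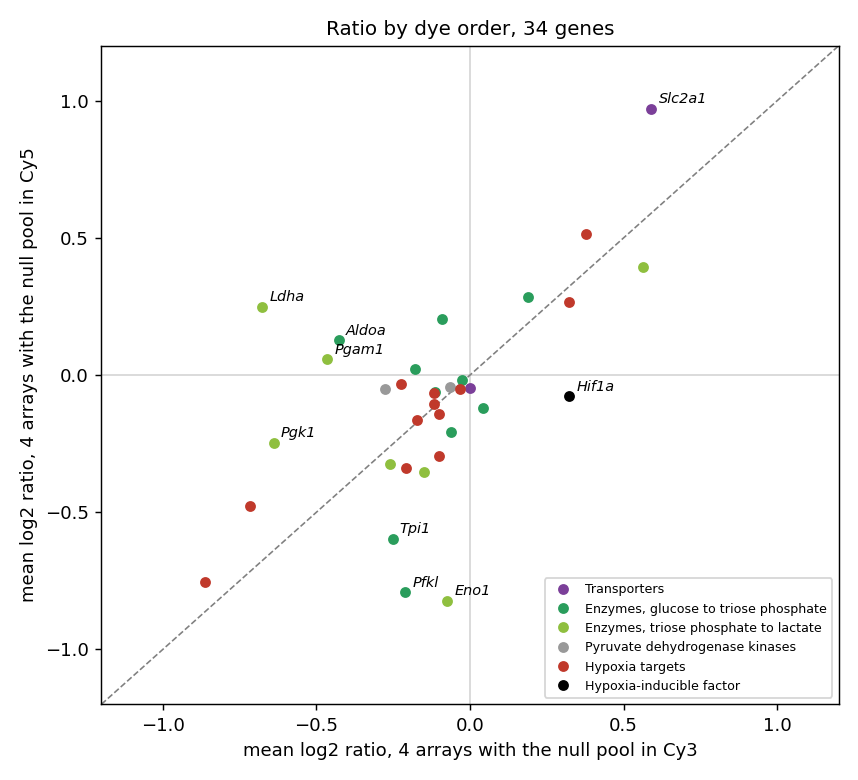
Mean log2 ratio of null over wild type over the 4 arrays with the null pool in Cy5 (y axis) against the 4 arrays with the null pool in Cy3 (x axis) for 34 genes coloured by role; the dashed line marks equal ratios. Ldha, Aldoa and Pgam1 lie below 0 with null in Cy3 and above 0 with null in Cy5, and Eno1 lies far below the dashed line at -0.07 and -0.82.

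Genes with more than 1 kept probe gave a check between probes. Of 14 such members, 13 had 1 sign over all their probes, and P4ha1 had ratios of -0.12 and 0.11. Of the members that passed the genotype test, Gapdh and Pgk1 were among the 14. Every other member that passed rested on 1 kept probe. The 2 probes of Aldoa were both at -0.15, and those of Pgk1 lay at -0.47 and -0.44. On the probes with 10 spots per array, the SD between spots of an array was 0.03 to 0.20 for Gpi1, 0.04 to 0.15 for Pgk1 and 0.06 to 0.16 for Vegfa. Tpi1 and Gapdh lie on chromosome 6 of build mm9, with probes at chr6:124760947-124761006 and chr6:125112515-125112573, and the probes of Eno2 lie on the same chromosome. So do the probes used for Slc2a3 (ratio -0.02), Hk2 (0.06) and Ldhb (0.48).

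Of 23 other glycolysis genes tested, 1 rose and 2 fell (median -0.03): Slc2a2, a glucose transporter of liver and yolk sac, was at 0.42, Pgam2, the muscle phosphoglycerate mutase, at -0.47 and Slc16a3, a lactate exporter, at -0.29. Pyruvate kinase appears on the array under the names Pkm and Pkm2, which were counted apart. Of 33 other genes of the hypoxia pathway, 3 rose and 2 fell (median -0.04). Beside both lists, 6.49% of all genes tested rose and 4.37% fell. Epas1, the alpha subunit of the second hypoxia-inducible factor, rose by 0.95 (SE 0.09, limma adjusted p = 1.31e-07, 8 of 8 arrays), and the lipoprotein receptor Vldlr fell by 0.64 (SE 0.10, limma adjusted p = 9.14e-05, 8 of 8 arrays). Arnt2, a partner subunit of these factors, rose by 0.32, and Stc2 fell by 0.36.

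Of 12 genes of the pentose phosphate pathway and of glycogen, 1 rose (Pygl, glycogen phosphorylase, by 0.27), against 6.49% of all genes. None of 19 genes of the citrate cycle and respiratory chain passed in limma, and none had an unadjusted p under 0.05. Their median was 0.01.

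Markers of other cell types moved with genotype or stage as well. Among all genes, 6.49% rose and 4.37% fell with genotype, and 6.13% rose and 4.89% fell with stage. Of 9 markers of visceral endoderm, an outer layer that also expresses Slc2a2, 3 rose in null (Cubn by 1.18, Amn by 0.97 and Apoa1 by 0.31), none fell, and all 9 passed the stage test as lower at 7/8 than at 4/5 somites. Afp, which did not pass the genotype test, was at 0.48 ± 0.08 at 4/5 and -0.82 ± 0.10 at 7/8 somites; its level went from 12.17 to 10.98 in null and from 11.69 to 11.80 in wild type. Cubn, in contrast, was at 1.08 at 4/5 and 1.28 at 7/8 somites. The summed level of the 9 markers, log2 of their summed signal, was 14.53 to 14.64 in null and 14.12 to 14.25 in wild type at 4/5 somites. At 7/8 somites it was 13.60 to 13.75 against 13.57 to 13.63. Such a sum leans on the brightest genes, here Rbp4, at 12.64 in null and 12.62 in wild type at 7/8 somites. None of the 9 was below the background limit.

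Of 7 endothelial markers 3 fell (Etv2 by 1.01, Kdr by 0.88 and Tal1 by 0.43), with a summed level of 10.64 to 10.87 in null and 11.05 to 11.19 in wild type at 4/5 somites and 10.83 to 10.92 against 11.62 to 11.91 at 7/8 somites; Pecam1 was below the limit. The ratio of Tal1 was 0.02 at 4/5 and -0.87 at 7/8 somites. Of 6 markers of primitive red cells 1 fell (Hbb-bh1 by 0.39) and 4 rose with stage (Hbb-bh1 by 3.75). Their summed level was 9.91 to 9.99 in null and 10.13 to 10.22 in wild type at 4/5 somites and 12.24 to 12.44 against 12.49 to 12.57 at 7/8 somites.

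Of 5 trophoblast markers 2 rose and 1 fell, with a summed level of 10.86 to 11.02 in null and 10.75 to 10.83 in wild type at 4/5 somites and 11.05 to 11.18 against 10.70 to 10.96 at 7/8 somites; Tpbpa was below the limit. Of 4 notochord and node markers 1 fell (Shh by 0.60), with a summed level of 11.28 to 11.44 against 11.58 to 11.69 at 4/5 and 11.44 to 11.53 against 11.5 to 11.64 at 7/8 somites. Of the 8 markers of posterior mesoderm 3 fell (Cdx4 by 0.74, Msgn1 by 0.60 and T by 0.34). Their summed level was 14.41 to 14.51 in null and 14.76 to 14.92 in wild type at 4/5 somites, and 14.68 to 14.77 against 14.53 to 14.74 at 7/8 somites. Among the posterior mesoderm markers that fell, T was at -0.61 at 4/5 and -0.07 at 7/8 somites. The part of these cell types in the changes of the members was not tested.

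The ACGTG form of the core motif, on either strand, was found in 22 of 45 promoter stretches of members (48.9%). Of all 32851 stretches of the same length, 16.6% held it. RefSeq start sites matched 32 of the 35 members, some of them with several starts. Stretches of hypoxia targets held it in 9 of 11 (81.8%) and those of enzymes in 10 of 29 (34.5%). The member stretches also held more CG pairs, with a median of 14 against 6. The E-box palindrome CACGTG, which contains the motif on both strands, was present in 5 of 45 member stretches (11.1%) and in 6.02% of all.

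By gene, 9 of 10 matched hypoxia targets and 7 of 18 enzymes had a match in at least 1 stretch. Among the members that passed the genotype test, 1 of 3 matched ones that rose had one (Slc2a1, while Adm and Ldhb had none). Ndrg1, which also rose, had no matched start site. Of those that fell, 4 of 8 had one (Pgk1, Bnip3, Egln3 and Ddit4). These counts are by gene, and the same share by gene was not taken over all genes. In the sequences printed above, the match of Slc2a1 began 36 bases and that of Ddit4 187 bases before the start. Those of Pgk1 began 150 and 131 bases before it. Members with ACGTG therefore included both those that rose and those that fell, and a match of letters is not a bound site. Members without it may hold the GCGTG form, which was not counted.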

How the data were processed

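Probe brightness was taken from the deposited scanner files, whose mean signals and local backgrounds are intensity values with no normalization, per the file headers; the software version is 10.5.1.1 in the headers and 9.5.3 in the submitters' processing notes. The deposited series matrix holds log10 ratios that equal the scanner's log ratio, turned to null over wild type, at 45018 of 45018 spots on each array (tolerance 1e-05); each column's median was 0. Spots with an uneven local background (167 in all) received their array's median background, a step chosen with the data known. Normexp (offset 50) and loess within arrays were run in limma 3.58.1 (R 4.3.3), with control spots at weight 0. Uneven and outlier spots (0.377%) were then left out, and no non-control spot was saturated. Spots of a probe were averaged, 21907 probes passed the background limit, and the brightest probe stood for each of 15490 genes. Probes were named through RefSeq accessions where these matched (25097 probes) and otherwise by the files' names; positions are on mm9. Channel levels were Aquantile-normalized between arrays.

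Arrays read as carrying the same pools counted as 1 replicate. The genotype fit used 1 ratio per stage and the stage fit 1 level per pool; both had 1 residual degree of freedom and a prior of 19.5 degrees of freedom. P-values rest mostly on the spread that limma pools over genes, and otherwise on the spread between these pools only. They do not use the spread between arrays or dye orders within a stage. The members and the gene lists were chosen with earlier results of these data known. Members were named if they passed a genotype, size or stage rule, and Slc2a1, Hk2, Gapdh, Ldha, Pgk1, Hif1a and Vegfa always; of other lists at most 4 called genes were named, those with the largest effect. The number of arrays and pools limits the precision. Alternatives in background, normalization, filter, probe, slide, dye order and arrays left out are given at the end.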

Additional observations from a re-analysis of the deposited data

Results flagged for a closer look

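The ratio of Slc2a3 at 7/8 minus 4/5 somites was 0.34, with all 4 arrays below 0 at the earlier stage and all 4 above 0 at the later one. That of Pfkfb3 was -0.52, with the signs the other way round. These differences between the stages were not tested. Opposite signs on all arrays of the stages occurred for 595 of 15434 genes (3.86%).

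Bnip3l on array 4 of 7/8 somites, at -0.29, and Egln3 on array 3 of 4/5 somites, at -0.047, lay far from the other 3 arrays of their stage. These are 2 of 68 groups of 4 arrays examined, and chance marks about 1 group in 20.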

How the results depend on the processing

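Slc2a1, Ldhb, Ddit4 and Bnip3 passed the genotype test in all 21 alternatives. The number of members that passed was 12 and became 7 with no background correction; leaving out 1 array gave 8 to 11. All genes called went from 1682 to 534 with no background correction, 970 with uneven backgrounds kept, 753 with no filter, 1117 with null in Cy3 alone and 817 to 1609 with 1 array left out. Calls in the higher direction were 59.8% of all and 79.6% with median centring. With the slide as a block, which is also the replicate block of same-numbered dye swap pairs, 16 members and 2557 genes passed, with Aldoc, Pgam1, Ldha and Bnip3l added; that fit counts repeats of the same pools as replicates, and the numbers name arrays, not embryos. With null in Cy3 alone Aldoa, Pgam1 and Ldha were added and 6 members lost; Hk2 turned to -0.092 there. With null in Cy5 alone Ldha turned to 0.25 and Hif1a to -0.076, and median centring turned Pfkfb3 to 0.0068. The cause was not tested.

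The size rule counted 4 members at 4/5 somites, 1 with median centring and 7 with null in Cy5 alone, and 5 members at 7/8 somites, 1 and 9 in these settings. Stage dependence counted 2 members, 1 with no background correction, 0 with median centring, 1 on slide 2 alone and 1 to 3 with 1 array left out. The enzyme median of -0.15 became -0.061 with null in Cy5 alone, and the hypoxia target median of -0.12 became -0.040 with median centring. The median of all genes, -0.01, became 0.01 with null in Cy5 alone and 0.045 with median centring. The stage effect counted 5 members: 2 with no background correction, with no filter or on slide 1 alone, 3 with the mean over probes, with quantile normalization or with null in Cy3 alone, 9 on slide 2 alone, 20 with no normalization between arrays, and 2 to 7 with 1 array left out. All genes called for stage, 1707, became 346 with no background correction, 587 with no filter, 799 with null in Cy3 alone, 3692 with no normalization between arrays and 701 to 1736 with 1 array left out. The wild type stage rule counted 4 members and 2 with the mean over probes. The null stage rule counted 1: 0 with no background correction, the mean over probes, quantile normalization or null in Cy5 alone, 2 with null in Cy3 alone and 0 to 1 with 1 array left out. The dye order analyses of stage and the second probes were chosen after seeing the data.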
